A study of Mus musculus with 11 samples.

Results

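Astrocyte nuclei were chosen from single-nucleus RNA profiles of mouse cortex by the genes detected in each nucleus. A nucleus was taken when at least 3 of 7 astrocyte genes (Acsbg1, Ntsr2, Gpc5, Fgfr3, Plpp3, Gli3 and Phkg1) had at least 1 UMI, a molecular tag that stands for 1 captured RNA molecule. It also had to hold at most 1 UMI of Slc17a7, the glutamate transporter of excitatory neurons, and at most 1 detected gene among Pdgfra, Mag, Mog and Csf1r, which mark the oligodendrocyte lineage and microglia. Of 112539 nuclei that passed the limits on genes and mitochondrial RNA, 8457 met this rule (7.51%). The study asked what NF-κB signalling in microglia does to mice with tau pathology, and the question put to the astrocytes was whether they differed between its genotypes.

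The 11 libraries came from 11 mice, 1 library each, in 4 genotype groups. The labels give every mouse as female, whereas the methods of the study name males for the RNA sequencing, and the sex is left as uncertain. Non-transgenic mice (4 mice, 9.8 to 10.85 months old, 2887 astrocyte nuclei) lacked the tau transgene. P301S mice (3 mice, 9.15 to 10.75 months, 2331 nuclei) carried the Tau-P301S transgene, which encodes a mutant human tau. Both of these groups lacked Cre, so the floxed alleles they also carried were not switched. The alleles concern IKKβ, the kinase (gene Ikbkb) that releases NF-κB. Knockout P301S mice (2 mice, 8.39 and 9.15 months, 1625 nuclei) carried the tau transgene, Cx3cr1 CreERT2/+ and floxed Ikbkb F/F. Active IKKβ P301S mice (2 mice, 9.8 and 10.85 months, 1614 nuclei) carried the tau transgene, Cx3cr1 CreERT2/+ and a constitutively active Ikbkb that Cre switches on. Tamoxifen was given to all groups, Cre-negative mice included, and the Cre acts in Cx3cr1-expressing cells, which are mainly microglia, so neither allele was aimed at astrocytes. One allele of Cx3cr1 was lost to Cre in both Cre groups and in no other, so Cre and the change of IKKβ cannot be told apart. Both knockout mice came from the floxed Ikbkb line and both active IKKβ mice from the line of the active allele. The other groups held mice of both lines, 2 and 2 in non-transgenic mice, 2 floxed and 1 active in P301S mice. The line was read from the names in the sample titles (IKKbCtrl and IKKbKO for floxed, IKKbWT and IKKbCA for active), since the genotype labels of the Cre-negative mice do not give it.

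Astrocytes clear glutamate and potassium from around synapses, supply lipids and metabolites to neurons, are joined to each other by gap junctions and send endfeet to blood vessels. After injury or in neurodegeneration they can become reactive, a state in which the filament gene Gfap and complement and acute-phase genes are known to rise. Microglial cytokines are among the signals known to induce such states.

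Each library gave 596 to 1004 astrocyte nuclei and 3009726 to 6034152 astrocyte UMIs in all. The median astrocyte nucleus of a library held 3510 to 5284 UMIs. It was 4784.5 and 5284 in knockout P301S mice and 5233 and 5118 in active IKKβ P301S mice, above every other mouse (3510 to 4713). Against P301S mice the exact two-sided permutation p was 0.200 for each of these groups. Any pair of libraries shared 14 to 44 barcodes, and 5 barcodes of astrocyte nuclei were shared in all. One library stood apart in its neurons: 10.4% of nuclei of active IKKβ P301S replicate 1 carried at least 3 of 5 genes of striatal projection neurons, against 1.88 to 5.37% in the other 10.

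Genes that the rule did not use also set these nuclei apart. All 21 astrocyte genes of a list kept apart from the rule were higher in astrocyte nuclei than in the other 104082 nuclei, and none was at 0. Levels are given as CPM, UMIs scaled to a total of 1000000 in the same nuclei, and are averages of the 11 libraries with the lowest and highest library. Slc1a2, the main glutamate transporter of the forebrain, stood at 6561 CPM (5248 to 7812) against 389.2 in other nuclei. Slc1a3, the other astrocyte glutamate transporter, stood at 1938 CPM (1605 to 2472) against 39.6. Aqp4, the water channel of the endfeet, stood at 142.7 CPM (106.7 to 238.9) against 1.73, and the connexin gene Gja1 at 174.6 CPM (136.8 to 224.7) against 2.29. Glul, which turns glutamate into glutamine, was at 362.1 CPM against 24.5, and the apolipoprotein Apoe at 701.2 CPM (405.4 to 968.7) against 40.4. Gfap had the widest spread of those named here, from 21.6 to 201.4 CPM between libraries, and was detected in 16.7% of astrocyte nuclei. These ratios describe nuclei chosen by related genes and carry no test.

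**Figure D1:**
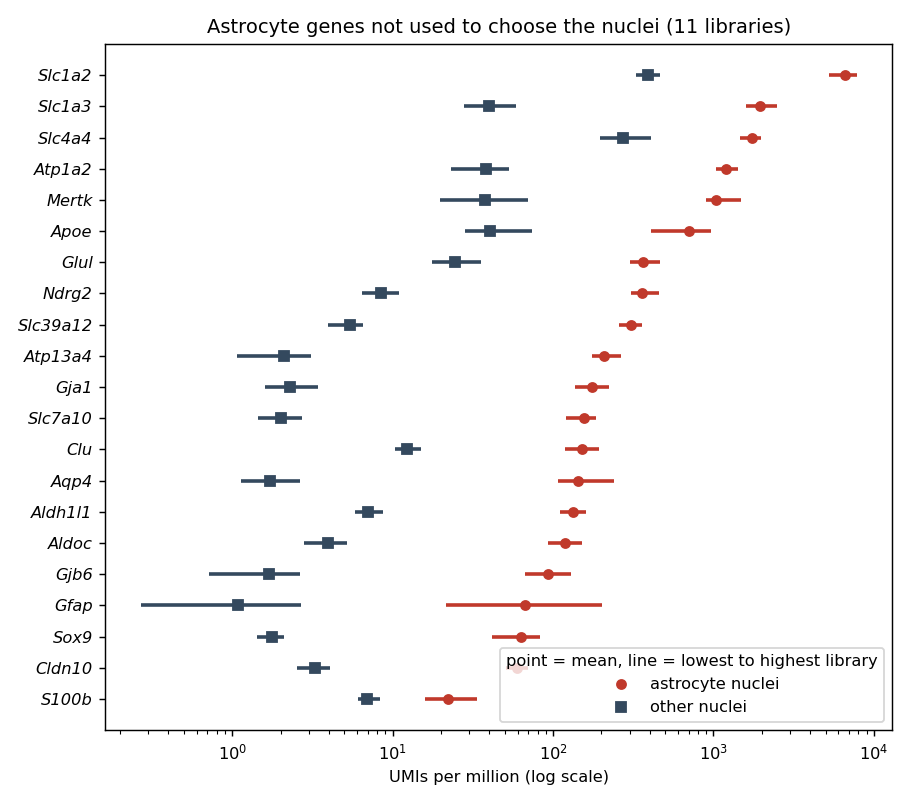
Levels of 21 astrocyte genes outside the selection rule, in CPM on a log axis, in astrocyte nuclei (circles) and all other nuclei (squares). Points are means of 11 libraries and lines run from the lowest to the highest library; every gene lies further right in astrocyte nuclei, and Gfap spans 21.6 to 201.4.

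Among genes outside the rule with at least 100 CPM in astrocyte nuclei, the 20 with the highest ratio to other nuclei ran from Pdzph1 (102.2 against 0.842 CPM, a ratio of 121.5) to Prdm16 (380.0 against 7.35 CPM, a ratio of 51.7). Grin2c, an NMDA receptor subunit, came next among these (292.3 against 2.92 CPM). The list held Gldc of the glycine cleavage system (252.0 against 3.40 CPM), the amino acid transporter Slc7a10 (155.8 against 2.00 CPM), the zinc transporter Slc39a12 (307.8 against 5.44 CPM) and the Hedgehog effector Gli2 (263.4 against 2.98 CPM). Of the 7 genes of the rule, Gpc5, a glypican, was the most abundant at 8590 CPM and was detected in 98.0% of astrocyte nuclei, but also in 31.2% of the others. Acsbg1, an acyl-CoA synthetase, had the highest ratio, 331.9 against 2.17 CPM, above that of Pdzph1.

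The number of rule genes detected split the nuclei unevenly. Of the 8457 nuclei, 3082 had all 7 genes, 2364 had 6, 1182 had 5, 557 had 4 and 1272 had only 3. Nuclei just inside the threshold, with 3 genes, held 21.0 CPM of Aqp4, 538.5 of Slc1a2 and 24.1 of Gja1. The 6737 nuclei just outside it, with 2 genes, held 4.24 CPM of Aqp4, 248.6 of Slc1a2 and 4.53 of Gja1. Nuclei with 4 or more held 172.9, 7900 and 207.3 CPM. The neuronal gene Syt1, a synaptic vesicle calcium sensor, was at 2450 CPM at 3 genes, 3080 at 2 genes and 1039 at 4 or more.

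The nuclei were then clustered on the 2000 most variable genes, each centred within its library, which gave 14 clusters. Clusters 1, 2, 3, 5 and 8 were taken as led by astrocyte genes and held 6483 nuclei (76.7%), of which 0.463% were called as doublets. This choice was made by hand. Of the 10 leading genes of clusters 2 and 5, 0 were on the astrocyte lists. The other 9 clusters were led by genes of other cell types or by mitochondrial genes and held 1974 nuclei (23.3%), of which 39.3% were called as doublets. Only 10.1% of the nuclei with 3 rule genes lay in the astrocyte-led clusters, against 67.7% with 4 genes and 91.1% with 7. About 1 in 4 nuclei that met the rule therefore lay in clusters not led by astrocyte genes, though not all of these lacked astrocyte RNA. There the 21 astrocyte genes outside the rule summed to 1877 (cluster 6) to 14315 CPM (cluster 10, 81.1% doublets). In the astrocyte-led clusters they summed to 15802 to 23432 CPM. Results below are for all 8457 nuclei unless the 6483 of the astrocyte-led clusters are named. The largest clusters outside were led by neuronal genes (cluster 4, 632 nuclei, 72.0% doublets), by genes of oligodendrocyte precursors (cluster 6, 447 nuclei, 1.57% doublets) and by striatal neuron genes (cluster 7, 345 nuclei, 45.8% doublets). These 3 clusters had medians of 11763, 4819 and 12392 UMIs per nucleus.

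Within the astrocyte-led nuclei, cluster 1 was the largest (3538 nuclei). Cluster levels are pooled over the nuclei of all libraries. Its leading genes included the Notch target Hes5 (124.5 CPM), the bridging protein gene Mfge8 (175.1 CPM), Id4 and Gldc. Cluster 2 (1498 nuclei) was led by Lgr6 (124.7 CPM), Car8 (167.9 CPM) and Chrdl1 (159.7 CPM), a secreted protein of cortical astrocytes. It had the least Gfap (24.3 CPM) and the most Kcnj10 (194.6 CPM), the main potassium channel of astrocytes. Cluster 3 (717 nuclei) was led by Agt (146.6 CPM), Itih3 (554.4 CPM) and Sparc (222.6 CPM), genes of astrocytes outside the cortex. It was subpallial or non-telencephalic astrocyte-like, with 7 of the 9 genes of that list raised, but not Crym (3.42 CPM, 38.5 in cluster 1). It carried 1416 CPM of the GABA transporter Slc6a11 and 3593 CPM of Slc1a2, where clusters 1 and 2 had 388.7 and 517.6 CPM of Slc6a11 and 10188 and 10250 CPM of Slc1a2. Cluster 5 (473 nuclei), which was not named, was led by Thbs4 (402.0 CPM), a matrix protein, Tshr and the oncostatin receptor Osmr (116.4 CPM, but 3.95 to 303.0 between libraries with a median of 37.6), and had 384.6 CPM of Gfap. Cluster 8 (257 nuclei) was Gfap-high astrocyte-like, with 644.4 CPM of Gfap, 1068 of Aqp4, 799.9 of Myoc, 486.7 of the matrix gene Tnc and 163.4 of Cd44. In it, 1 library held 32.7% of the nuclei. Between libraries Gfap ran from 152.1 to 2181 CPM (median 496.5) and Cd44 from 0 to 523.4 CPM (median 123.3). These levels define the clusters and were not tested.

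**Figure D2:**
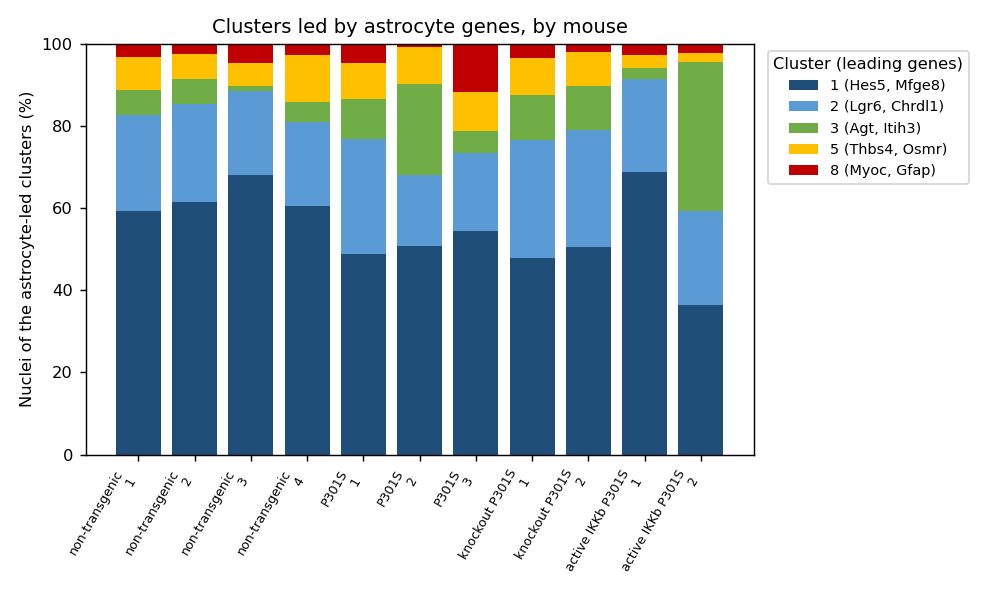
Share (%) of each mouse's astrocyte-led nuclei in clusters 1, 2, 3, 5 and 8, one bar per mouse, with the genotype and replicate under each bar. Cluster 3 runs from 1.29% in non-transgenic replicate 3 to 36.4% in active IKKβ P301S replicate 2, and cluster 8 reaches 11.7% in P301S replicate 3.

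The mix of these clusters differed between mice of the same genotype. Cluster 3 made up 6.17, 6.09, 1.29 and 4.89% of the astrocyte-led nuclei without the transgene, 9.64, 22.1 and 5.45% in P301S mice, 11.05 and 10.8% in knockout P301S mice, and 2.78 and 36.4% in active IKKβ P301S mice. The 2 mice of the last group held the second lowest and the highest of the 11 values. Cluster 8 made up 2.39 to 4.73% without the transgene, and 4.58, 0.777 and 11.7% in P301S mice. Cluster 1 made up 68.7 and 36.5% in active IKKβ P301S mice, the highest and the lowest of the 11 values. It made up 47.8 and 50.5% in knockout P301S mice. Its share was 59.3 to 68.2% in non-transgenic mice and 48.9, 50.7 and 54.4% in P301S mice, so these last groups did not overlap. The difference was -11.1 percentage points (exact two-sided permutation p = 0.0286, the smallest that 35 splits allow), and it did not pass adjustment over 20 comparisons of clusters (adjusted p = 0.485). Cluster 5 made up 3.21 and 2.04% in active IKKβ P301S mice and 8.82 to 9.37% in P301S mice (p = 0.1 by the same exact test, the smallest that 10 splits allow, adjusted p = 0.485).

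No difference between genotypes in the share of nuclei that were astrocytes passed the test. It was 6.83, 5.89, 8.97 and 8.45% without the transgene, 6.97, 5.41 and 8.19% in P301S mice, 9.59 and 8.44% in knockout P301S mice, and 5.81 and 8.81% in active IKKβ P301S mice. Both knockout mice lay above all 3 P301S mice, and every other pair of groups overlapped. P301S mice (6.86% ± 1.40, SD, n = 3) differed from non-transgenic mice (7.54% ± 1.43, SD, n = 4) by -0.679 percentage points (exact two-sided permutation p = 0.514). Knockout P301S mice (9.01% ± 0.815, SD, n = 2) were 2.15 points above P301S mice (exact permutation p = 0.200, adjusted over 4 comparisons 0.8). Active IKKβ P301S mice (7.31% ± 2.12, SD, n = 2) were 0.456 points above P301S mice (exact permutation p = 0.700). With 2 against 3 mice no p under 0.1 was possible. Within the floxed line the knockout mice also lay above the P301S mice (6.97 and 5.41%), and within the active line the P301S mouse (8.19%) lay between the active IKKβ mice; no within-line test was run with 1 or 2 mice a group. In astrocyte-led clusters alone the knockout difference was 0.940 points (exact permutation p = 0.400). These clusters held 70.6% of the knockout and 74.4% of the active IKKβ astrocyte nuclei on average, against 78.9% in P301S mice. Neither group overlapped P301S mice (exact permutation p = 0.1 each, adjusted p = 0.178). A share cannot tell a change of astrocytes from a change of the other nuclei.

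**Figure D3:**
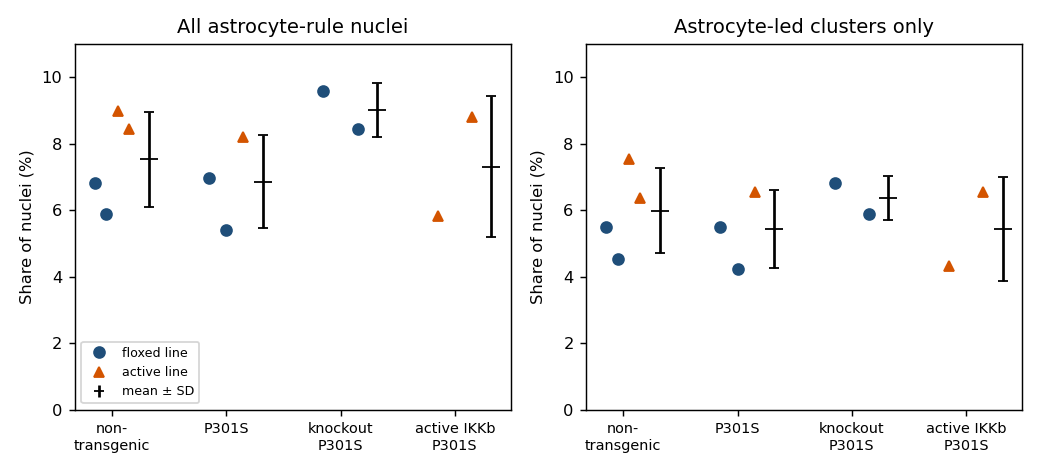
Astrocyte share (%) of the nuclei of each mouse, by genotype, for all nuclei that met the rule (left) and for astrocyte-led clusters (right). Circles are mice of the floxed line, triangles mice of the active line, and bars the mean ± SD; the knockout P301S mice lie at 9.59 and 8.44% on the left, above all P301S mice, and at 6.83 and 5.90% on the right, where they overlap them.

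Genes were compared between genotypes on counts summed over the astrocyte nuclei of each mouse, so that the mouse was the replicate, with edgeR's quasi-likelihood test over 13747 genes and Benjamini-Hochberg adjustment. A gene was called at an adjusted p under 0.05 with a log2 fold change beyond 0.1 either way. The labels do not say whether mice shared litters. Levels in these comparisons are CPM scaled by TMM factors, which correct each library for its composition. In bulk sums such as these, fewer expressing nuclei and less RNA per nucleus cannot be told apart. The comparisons of P301S, knockout and active IKKβ mice all use the same 3 P301S mice. Where a gene is said not to overlap between groups, the share of all genes tested without overlap is not given. Such separation therefore describes the gene and is no result by itself.

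Between P301S and non-transgenic mice, 1 gene was called (0.00727% of those tested), and it rose. Another 515 had an unadjusted p under 0.05 (516 in all), and DESeq2 called 2. The 516 were fewer than 0.05 of the 13747 genes tested, the share that this cut passes with no difference at all. With all 7 mice that carry the tau transgene set against the 4 non-transgenic mice, 2 genes were called (0.0145%), 1 higher and 1 lower, and DESeq2 called 11. The 2 genes and the next by p were on chromosome 3 (build GRCm38, annotation GENCODE M21). Of the 15 genes with the smallest p, 5 were on this chromosome in the P301S comparison and 4 in that of all P301S mice, and the chromosome held 5.11% of the genes tested.

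Gm43049 (ENSMUSG00000105777), a long intergenic noncoding RNA gene at 140692038 to 140760704 of chromosome 3, had no UMI in astrocyte nuclei of any non-transgenic mouse. It stood at 6.75, 3.29 and 3.29 CPM in P301S mice, 3.90 and 3.52 in knockout mice and 2.90 and 3.91 in active IKKβ mice. All 7 tau-transgenic mice thus lay above all 4 others. The gene passed the filter on low counts only through the tau-transgenic mice, so its call is a description of a gene that had to differ. With a floor of 3 counts over the non-transgenic group, the gene was at least 21.6-fold higher in P301S mice and at least 19.2-fold higher in all P301S mice (edgeR adjusted p = 0.0386 and 0.0250). In the astrocyte-led clusters these bounds were 5.50-fold and 5.06-fold. With any 1 library left out, the P301S call was lost in 11 of 11 fits (adjusted p 0.0509 to 0.167), and the call over all P301S mice held in 5 of 11 (adjusted p 0.0226 to 0.118). Both calls were lost with doublets left out (edgeR adjusted p = 0.319 and 0.0777) and with at least 4 rule genes (0.226 and 0.122). Both stayed with no filter on low counts, but those fits called 66 and 291 genes in all. As the gene had no UMI in the non-transgenic group, these outcomes are no separate support. The other nuclei also carried the gene, at 6.78 to 13.3 CPM in tau-transgenic mice and 0.0146 to 0.0650 in non-transgenic mice. In the astrocyte-led clusters it was at 0.418 to 2.43 CPM in tau-transgenic mice and fell under the filter on low counts there.

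Ddit4l (ENSMUSG00000046818), a stress-induced inhibitor of the growth kinase mTORC1, lies at 137621612 to 137628333 of the same chromosome. It stood at 15.2, 17.6, 19.0 and 18.0 CPM in non-transgenic mice. In P301S mice it was at 8.22, 8.89 and 8.84 CPM, in knockout mice at 7.46 and 11.1, and in active IKKβ mice at 8.43 and 8.48. No tau-transgenic mouse reached the lowest non-transgenic mouse. Over all P301S mice it fell by 1.002 on the log2 scale (SE 0.14, edgeR adjusted p = 0.0275). The call held in 2 of the 11 fits that left out 1 library (adjusted p 0.0366 to 0.148), those without knockout replicate 2 or active IKKβ replicate 1. It was lost with doublets left out (adjusted p = 0.0667), with stricter membership (0.325), in nuclei thinned to equal depth (0.863) and with age as a covariate (0.160), where the log2 difference stayed between -1.03 and -0.80. In P301S mice alone the log2 difference was -1.01 (SE 0.18, adjusted p = 0.241). In the astrocyte-led clusters the difference over all P301S mice was -0.95 (adjusted p = 0.0675). In the other nuclei the log2 difference over all P301S mice was -0.22 (SE 0.18), and the test of the difference between astrocyte and other nuclei gave -0.81 (SE 0.20, adjusted p = 0.250).

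Tifa (ENSMUSG00000046688), an adaptor that links innate immune receptors to TRAF6 and NF-κB, lies at 127789805 to 127832164 of chromosome 3. It was named after its values were seen. It stood at 19.4, 19.5, 13.7 and 14.2 CPM in non-transgenic animals and 30.2, 30.6 and 37.0 in P301S mice. Knockout mice had 31.2 and 25.9 CPM and active IKKβ mice 34.2 and 25.3, so no tau-transgenic mouse overlapped the non-transgenic group. The log2 difference was 0.99 (SE 0.17, edgeR adjusted p = 0.210) in P301S mice and 0.87 (SE 0.14, adjusted p = 0.0976) over all P301S mice. In the astrocyte-led clusters the latter was 0.99 with an adjusted p of 0.0262, the only gene called there (0.00827% of 12093). In the other nuclei it was -0.06 (SE 0.12), and the difference between the classes was 0.91 (SE 0.14, adjusted p = 0.0894).

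Next to Tifa lies Alpk1 (127670310 to 127780527), which encodes the kinase that senses bacterial ADP-heptose and acts through TIFA. It was far higher in astrocyte nuclei (103.0 to 195.2 CPM before scaling) than in other nuclei (6.59 to 22.0 CPM). In the other nuclei it stood at 6.59 to 9.51 CPM in the non-transgenic controls and at 12.6 to 22.0 in tau-transgenic mice, a log2 difference of 1.02 (SE 0.12, edgeR adjusted p = 0.0120 in their own fit, where 0.0345% of genes were called). In astrocyte nuclei the log2 difference was -0.43 (adjusted p = 0.543). The difference between the classes was -1.45 (SE 0.09, adjusted p = 2.01e-06) over all P301S mice and -1.05 (SE 0.11, adjusted p = 0.00192) in P301S mice. Alpk1 was the only gene so called in either comparison (0.00727% each), and the direction of Alpk1 differed between the classes without a call in astrocytes themselves. Against oligodendrocyte nuclei no gene (0) was called in these comparisons, and for Alpk1 the difference was -1.33 (SE 0.23, adjusted p = 0.132).

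**Figure D4:**
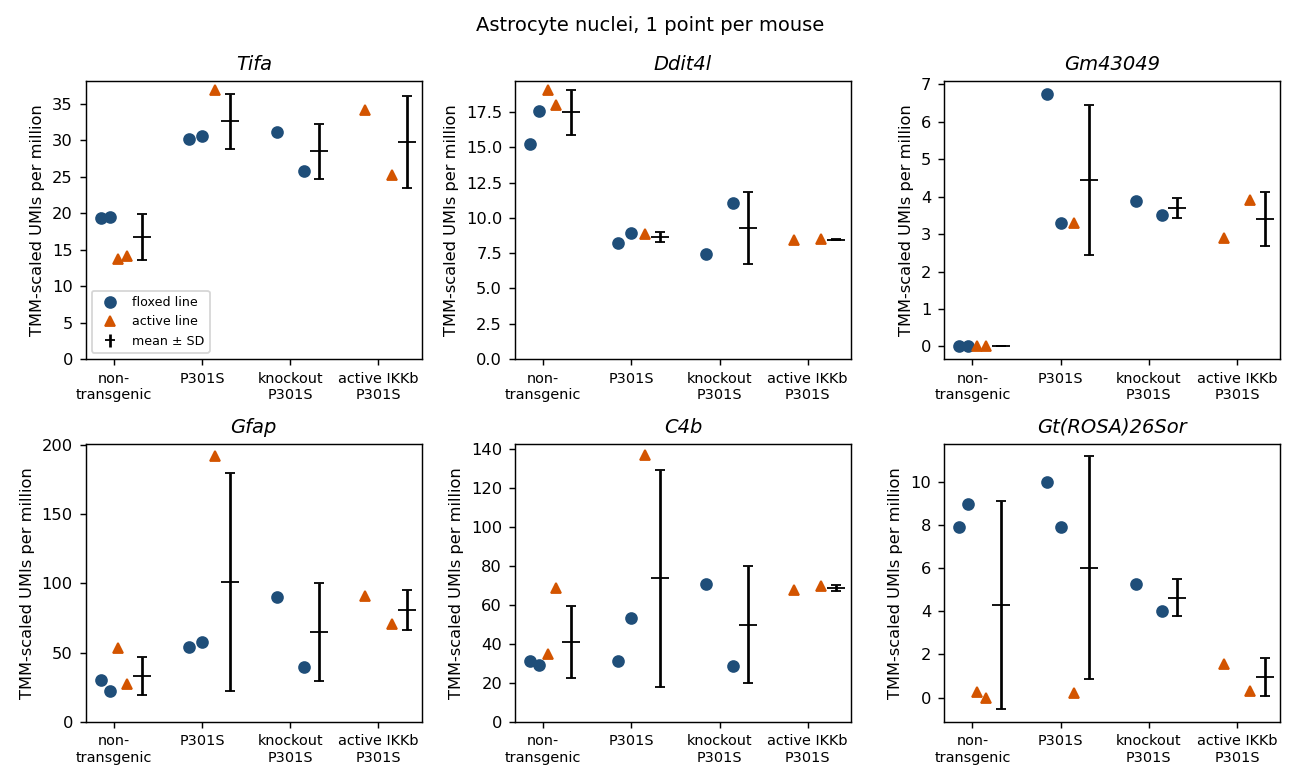
TMM-scaled CPM of 6 genes in the astrocyte nuclei of each mouse, by genotype; circles are mice of the floxed line, triangles mice of the active line, and bars the mean ± SD. Tifa and Gm43049 are higher and Ddit4l lower in all 7 tau-transgenic mice than in the 4 others, Gfap and C4b are highest in P301S replicate 3, and Gt(ROSA)26Sor is near 0 in the active line.

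No reactive gene was called in P301S mice, although the pan-reactive genes tested all averaged above non-transgenic mice, and 1 mouse carried much of the difference. Of the 15 pan-reactive genes of the list, 9 passed the filter, all 9 had a log2 difference above 0 and their median was 1.63, beside 0.00 over all genes tested. Gfap stood at 30.1, 22.1, 53.4 and 27.5 CPM without the tau transgene and 54.3, 57.3 and 192.3 in P301S mice. The groups did not overlap, yet replicate 3 of the P301S mice stood far above the other two (log2 difference 1.63, SE 0.55, edgeR adjusted p = 0.999). That mouse was the only P301S mouse of the active line. Within the floxed line Gfap was at 30.1 and 22.1 CPM without and 54.3 and 57.3 CPM with the transgene, and within the active line at 53.4 and 27.5 against 192.3 CPM. C4b, a complement gene, stood at 31.1, 29.1, 34.9 and 68.6 CPM in non-transgenic animals and 31.1, 53.0 and 136.8 in P301S mice, with overlap (log2 difference 0.86, SE 0.56). Osmr was at 3.601 to 9.20 CPM and at 12.04, 8.56 and 45.2 CPM, and Aspg at 6.34 to 7.68 and at 8.52, 10.5 and 42.1 CPM. Serpina3n, a protease inhibitor and a common marker of reactive astrocytes, was at most 5.75 CPM in any mouse. Vim, a filament gene, stood at 2.86 to 5.81 CPM in the non-transgenic controls and 4.70, 8.23 and 11.3 in P301S mice (log2 difference 1.12, SE 0.33). Without P301S replicate 3 the pan-reactive median was 0.57, with 8 of 9 above 0. That mouse also had the highest share of the Gfap-high cluster 8 (11.7%), and in clusters 1 and 2 alone, where 6 members passed the filter, the median was 1.19.

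The smaller reactive lists had few members past the filter on low counts. All 5 tested A1-type genes of 11, a set named for astrocytes induced by inflammatory signals, were above 0 (median 1.07). The median was the value of Fkbp5, a glucocorticoid-induced gene, at 19.7 to 28.1 CPM without the tau transgene and 87.2, 21.4 and 45.8 in P301S. P301S replicate 1, its highest mouse, also had the highest summed level of the glucocorticoid-induced list (2879 CPM against 1582 to 2244 in the other 10 mice), and the part of this in the median was not tested. Of 12 A2-type genes, named for astrocytes after ischemia, only 3 passed the filter, 1 of them (Tm4sf1) at 0.320 to 1.32 CPM without the tau transgene and 2.64 to 4.11 in P301S, so nothing is read from their direction. Of 19 tested interferon response genes 18 were above 0 (median 0.49). None of these genes was called. H2-D1, a class I histocompatibility gene, had 2.64 to 5.44 CPM without the tau transgene and 4.70, 7.58 and 8.63 in P301S mice, and was the first by p among interferon genes (log2 difference 0.90, SE 0.31). Without P301S replicate 3 the A1-type median was 0.75 and that of the disease-associated astrocyte list moved from 0.26 to 0.05. The interferon median was then 0.08, with 13 of 19 above 0. These lists share members, and several members were far below 10 CPM.

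Most lipid genes lay the other way, also without a call. Of 27 genes of cholesterol and lipid synthesis, 23 had a log2 difference below 0 in P301S mice (median -0.23), where 49.1% of all genes tested were above 0. Over all P301S mice 25 did (median -0.22). The summed level of the list before scaling was 3362, 2988, 3609 and 2585 CPM in non-transgenic mice and 2786, 3227 and 3304 in P301S mice. Non-transgenic replicate 4 was thus below all 3 P301S mice. In the P301S comparison the first of the list by p was Lpl, lipoprotein lipase, which lay above 0. It was at 1.32 to 2.48 CPM without the tau transgene and 4.11, 2.64 and 5.55 in P301S mice. Its levels in non-transgenic mice were too low for the filter on low counts. It passed only through tau-transgenic mice, so nothing is read from its direction. Over all P301S mice the first by p was Fads2, a fatty acid desaturase. Fads2 was at 138.4 to 162.5 CPM in non-transgenic mice and 114.5 to 139.8 in the others (log2 difference -0.28, edgeR adjusted p = 0.478). The median over all P301S mice was -0.21 in the astrocyte-led clusters and -0.23 without P301S replicate 3.

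No gene of the lists for core astrocyte functions was called, and their medians lay near 0. The median log2 difference in P301S mice was -0.09 for 18 genes of glutamate and GABA uptake and their receptors (6 above 0), -0.04 for 18 genes of potassium, water and ion transport (7 above 0), -0.05 for 15 genes of gap junctions and adhesion (6 above 0) and -0.07 for 19 genes of glycolysis and glycogen (3 above 0), beside 49.1% above 0 over all genes tested. Slc1a2 was at 6660 to 8066 CPM in non-transgenic animals and 7154, 5983 and 6073 in P301S mice, and Kcnj10 at 91.2 to 102.2 and at 83.1, 81.4 and 68.8 CPM. Kcnj10 did not overlap between these groups (log2 difference -0.31, edgeR adjusted p = 0.999). Il33, an alarmin that NF-κB is known to induce, was at 51.3 to 59.7 CPM and at 29.1, 41.5 and 55.7 CPM. Mouse Mapt, the tau gene, was at 303.8 to 358.3 CPM in the non-transgenic controls and 343.1 to 414.7 in tau-transgenic mice (log2 difference 0.14, edgeR adjusted p = 0.693). Human tau was not counted separately. Prnp was at 0 to 0.822 CPM in every mouse and was not tested, and it overlaps the readthrough gene Prn on the same strand, so its reads may be split.

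Loss of IKKβ in Cx3cr1-expressing cells went with no called gene in astrocyte nuclei (0 of 13747, 0%). DESeq2 called 5, and an unadjusted p under 0.05 was seen for 1397, more than 0.05 of the genes tested. The latter count was 531 with age as a covariate. The knockout mice were 8.39 and 9.15 months old and the P301S mice 9.15 to 10.75, so that fit cannot tell age from knockout. Ikbkb itself was at 63.4 and 63.1 CPM in knockout mice against 59.0, 59.6 and 53.6 in P301S mice. Gfap was at 90.0 and 39.7 CPM in knockout mice, within the range of the other groups, and the median of the 9 pan-reactive genes was -0.65. Without P301S replicate 3 this median was 0.24, so its sign rested on that mouse, and with breeding line as a covariate it was -0.01 with 4 of 9 above 0. Of 12 tested NF-κB targets 4 were above 0 (median -0.08, and -0.01 in the astrocyte-led clusters), and of 28 cytokine receptor and NF-κB signalling genes 10 were (median -0.09). Without P301S replicate 3 these medians also turned, to 0.08 (6 of 12 above 0) and 0.05 (16 of 28). Nfkbia, the inhibitor that NF-κB induces, stood at 11.01 and 13.6 CPM against 20.8, 9.55 and 13.6.

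Neuronal transcripts had their highest summed level in the knockout nuclei, without a called gene. All 16 genes of a general neuronal list had a log2 difference above 0 (median 0.38, beside -0.01 over all genes), and without P301S replicate 3 the median was 0.23, with 15 above 0. Their summed level was 22496 and 22204 CPM in knockout mice, against 20098, 17144 and 15619 in P301S mice, 14327 to 19911 in non-transgenic mice and 19841 and 18420 in active IKKβ mice. The knockout mice were thus the 2 highest of 11. With called doublets left out, 76 genes were called in the knockout comparison (0.573% of 13260), 72 of them higher. Among them, on the neuronal lists, were Grin2a (log2 difference 1.07), Camk2a (0.97), Sv2b (0.82), Grin2b and Syt1 (0.63 each, with edgeR adjusted p between 0.0378 and 0.0450). Without the clusters led by other types 0 genes were called, and the summed neuronal level was 9316 and 9124 CPM in knockout mice against 6795 to 8229 in P301S mice. Non-transgenic replicate 4, at 9613 CPM, lay above both knockout mice there. The median log2 difference of the 16 genes was 0.37 in these clusters and 0.72 without doublets, beside 0.38 in all nuclei. Cluster 9, led by mitochondrial genes with a median of 1375.5 UMIs, held 4.58 and 6.76% of knockout astrocyte nuclei, 0.771, 0.909 and 1.68% of those of P301S mice and 0.310 to 5.28% of those of non-transgenic mice. None of the 16 genes was at 0 in astrocyte nuclei. The part of this cluster in the neuronal level, and of these transcripts in other values of the knockout comparison was not tested.

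Trpc4, a cation channel gene, and Dlx6os1, a noncoding RNA of inhibitory neurons, were called for a difference between astrocyte and other nuclei in the knockout comparison (0.0145%). Trpc4 was at 40.3 and 44.5 CPM in knockout astrocyte nuclei and 19.1 to 27.9 in P301S (difference between the classes 0.93, SE 0.13, edgeR adjusted p = 0.0418). Dlx6os1 was at 45.1 and 59.0 against 19.97 to 27.9 CPM (difference 1.29, SE 0.18, adjusted p = 0.0418). In the astrocyte-led clusters the log2 differences between knockout and P301S mice were 0.06 for Trpc4 and 0.56 for Dlx6os1.

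Active IKKβ also went with no called gene (0 of 13747, 0%). DESeq2 called 0 as well, and an unadjusted p under 0.05 was seen for 688, close to 0.05 of the genes tested. Ikbkb was at 65.6 and 60.7 CPM, and Gfap at 91.1 and 70.3 CPM against 54.3, 57.3 and 192.3 in P301S mice. The pan-reactive median was -0.33, but 0.22 without P301S replicate 3 and -0.83 with breeding line as a covariate. C4b stood at 67.7 and 69.6 CPM. Of 12 NF-κB targets 9 were above 0 (median 0.05), but the median was -0.01 in the astrocyte-led clusters and -0.04, with 5 above 0, with breeding line as a covariate. Tm4sf1, an A2-type gene with the smallest p of its list, was at 0.263 and 0.489 CPM against 2.64 to 4.11 in P301S mice. Its levels in active IKKβ and non-transgenic mice were too low for the filter on low counts. It passed through mice where it was higher, so nothing is read from this difference. Apobec3, a cytidine deaminase of antiviral defence, was the only gene called for a difference from oligodendrocyte nuclei (-2.24, SE 0.31, adjusted p = 0.0120, 0.00727%). It was at 24.2 and 27.5 CPM before scaling in astrocyte nuclei of active IKKβ mice, beside 18.6 to 31.4 in P301S mice. In oligodendrocyte nuclei it was at 5.99 and 7.44 CPM, beside 0.746 to 1.90 in P301S mice. Against all other nuclei no gene (0) was called.

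**Figure D5:**
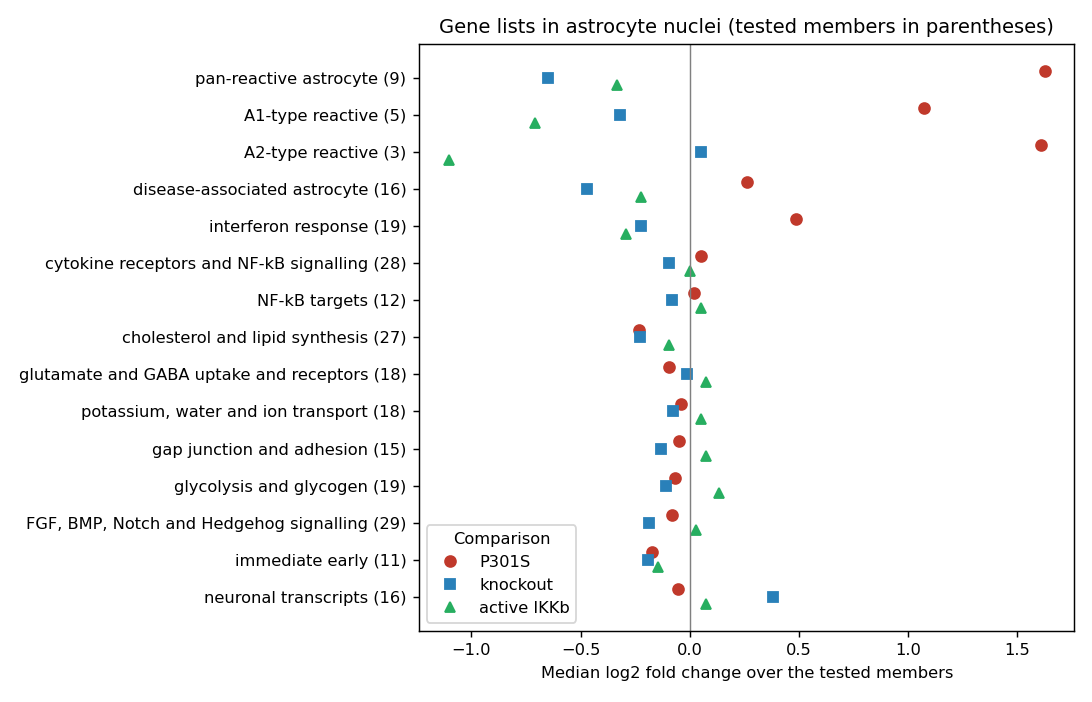
Median log2 fold change of the tested members of 15 gene lists in astrocyte nuclei (number tested in parentheses) for P301S against non-transgenic mice (circles), knockout P301S against P301S mice (squares) and active IKKβ P301S against P301S mice (triangles). The pan-reactive median is 1.63 in the first comparison and -0.65 and -0.33 in the others, but all 3 use the same P301S mice, and without P301S replicate 3 these medians are 0.57, 0.24 and 0.22.

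The breeding lines, taken from the title names and not from any measured gene, were also compared. With genotype in the model, 23 genes were called between mice of the active and the floxed line (0.167%), 13 higher (0.0946%) and 10 lower (0.0727%) in the active line. Only non-transgenic and P301S mice inform this difference, since the knockout and active IKKβ groups are each of 1 line and have their own term. The count rested on single mice. It was 2 without non-transgenic replicate 1 and 3 without P301S replicate 2. It was 4, 6, 8 and 10 without non-transgenic replicates 3 and 2 and P301S replicates 3 and 1, and 24 without non-transgenic replicate 4. Gt(ROSA)26Sor, the transcript of the Rosa26 locus into which the active allele was inserted, stood at 7.93 and 8.96 CPM in floxed and 0.264 and 0 CPM in active non-transgenic mice. It was at 9.98 and 7.91 against 0.205 CPM in P301S mice, 5.25 and 4.02 CPM in knockout mice and 1.58 and 0.326 CPM in active IKKβ mice (log2 difference -5.56, edgeR adjusted p = 0.000644), so the lines did not overlap. Its levels in the active line were too low for the filter on low counts. The gene passed only through floxed mice, so its call is a description and no separate support for a difference between lines. Rnf121, a ubiquitin ligase gene, was at 38.9 to 44.7 CPM in the 6 floxed mice and 105.0 to 191.8 in the 5 active mice (log2 difference 1.77). Fgfr1, a growth factor receptor of astrocytes, was at 154.6 to 188.9 CPM in floxed mice and 185.5 to 264.7 in active mice (log2 difference 0.57, adjusted p = 0.0281). Rfx4, a transcription factor of the astrocyte lineage, was at 274.0 to 312.8 CPM in floxed mice and 299.1 to 557.8 in active mice. Since both knockout mice are of one line and both active IKKβ mice of the other, knockout and active mice were compared only with P301S mice and not with each other.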

How the data were processed

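Nuclei from frozen mouse cortex were sorted on DAPI and profiled with 10x 3′ v3 chemistry, and the authors deposited UMI counts per gene and nucleus (Cell Ranger 3.1.0, build mm10, pre-mRNA counted; Seurat 3.0 is also named). The counts were not normalized.

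Of 114118 barcodes, 112539 had 300 to 8000 genes with no more than 5% of UMIs from mitochondrial genes and were kept. Doublets were called by comparison with simulated pairs over 50 neighbours, at an assumed 0.8% per 1000 barcodes, and were kept in the main results (9474 nuclei, 805 of them astrocyte nuclei). Astrocyte nuclei were clustered with leidenalg on a graph of shared neighbours (2000 variable genes, 15 components, 20 neighbours, Leiden resolution 0.3). Each gene was centred within each library before the components were computed. UMIs were summed per mouse and tested with edgeR 4.0.16 (TMM, filterByExpr, robust quasi-likelihood fit of all 11 libraries, genotype groups as terms). DESeq2 1.42.0 was an alternative. Differences between cell classes were tested as interactions with a term per mouse. Shares were compared by exact permutation tests over mice. Counts were also simulated for the P301S comparison (13554 genes). Of 100 genes changed by 1 on the log2 scale 97 were recovered, and of 100 changed by 2 all 100, with 13 false calls. The changed genes were drawn from those with a mean of at least 50 UMIs per library, and all were changed at once. The simulated spread followed the trend over genes and not the spread of each gene. This recovery cannot be carried over to scarcer genes or to those that varied more between mice.

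Genes named were those called (the 10 highest and 10 lowest log2 changes per comparison), 20 fixed genes, and for each gene list up to 4 called members or, with none called, the one with the smallest p; others are said to be chosen after their values were seen, or were called in an interaction test. Other members of a list are given as examples. The members and lists were chosen with earlier results of these data known. Of 31053 genes, 31011 matched GENCODE M21. Totals per library bound the precision, and intervals and floors cover counting error only. Fits with other filters, memberships, covariates and left-out mice are given in the closing section. Some list members are not reported here.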

Additional observations from a re-analysis of the deposited data

Results flagged for a closer look

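In the 4 non-transgenic mice, 1 mouse lay far from the other 3 for 3 of 34 genes tested this way, and chance alone marks about 1 in 20. Vim was at 5.81 CPM in replicate 3 against 2.86 to 3.20 in the others, Serpina3n at 1.90 CPM in replicate 1 against 0 to 0.264, and C4b at 68.6 CPM in replicate 4 against 29.1 to 34.9.

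For 4 genes the response of astrocyte nuclei differed from that of another class by an interaction test in edgeR. Alpk1 differed from other nuclei by -1.05 on the log2 scale in P301S mice (adjusted p = 0.00192) and by -1.45 over all P301S mice (adjusted p = 2.01e-06). Trpc4 and Dlx6os1 differed by 0.93 and 1.29 in the knockout comparison (adjusted p = 0.0418 each). Both are also expressed in neurons, and the knockout nuclei held the highest summed neuronal level of the 11 mice; its part in these values was not tested. Apobec3 differed from oligodendrocyte nuclei by -2.24 in the active IKKβ comparison (adjusted p = 0.0120).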

How the results depend on the processing

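The P301S comparison called 0 genes with at least 4 rule genes, with breeding line as a covariate, without doublets, without nuclei with any Slc17a7 or other marker, with a stricter filter on low counts and without clusters led by other types (with or without doublets), and 0 to 0 with 1 mouse left out. It called 2 with DESeq2 and 66 with no filter. The knockout comparison called 5 with DESeq2, 76 without doublets, 275 with no filter and 0 to 1 with 1 mouse left out. The active IKKβ comparison called 169 with no filter and 0 to 1 with 1 mouse left out. Over all P301S mice, 1 gene was called with age as covariate, with at least 4 rule genes, in clusters 1 and 2, and without clusters led by other types (with or without doublets), 4 with line, 11 with DESeq2, 291 with no filter, 0 without doublets, with strict membership, with the stricter filter and in thinned nuclei, and 0 to 8 with 1 mouse left out. The line comparison called 14 with age and with at least 4 rule genes, 59 with DESeq2, 415 with no filter, 4 with strict membership and with the stricter filter, 7 in thinned nuclei and 2 to 49 with 1 mouse left out. Hs3st4 changed sign between lines, to 0.18 without doublets, 0.11 without clusters led by other types, 0.18 in clusters 1 and 2 and 0.083 without clusters led by other types and doublets.

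Replicate numbers did not pair the mice (correlations of deviations -0.136 to 0.151). A replicate block gave 0 calls for P301S, 1 for knockout, 1 for active IKKβ and 14 over all P301S mice.

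The share difference of active IKKβ mice turned to -0.0485 points with strict membership and -0.0496 in clusters 1 and 2 (-1.04 to 1.95 with 1 mouse left out). That of all P301S mice turned to -0.238 with at least 4 rule genes, -0.123 with strict membership, -0.229 in thinned nuclei, -0.468 of non-neuronal nuclei, -0.291 without clusters led by other types and -0.830 in clusters 1 and 2 (-0.483 to 0.544 with 1 mouse left out). That of P301S mice ran from -1.35 to 0.0466 and that of knockout mice from 1.43 to 2.82 with 1 mouse left out. The cluster settings were chosen after seeing the data, and the cause of these changes was not tested.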
